A study of Mus musculus with 6 samples.

Results

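The genes of matrix proteases and their inhibitors were read in C2C12 myotubes, muscle fibres formed in culture by a mouse myoblast line. Members were the genes of the deposited count table whose symbol begins with Mmp, Timp, Adamts, Adamtsl or Adam followed by a number, and there were 84 of them among 46983 genes. They comprised 23 Mmp, 4 Timp, 19 Adamts, 5 Adamtsl and 33 Adam genes. The myotubes, of wild-type genotype, received corticosterone (1e-07 M), a glucocorticoid hormone, or its ethanol vehicle (1 µL/mL), in both cases over 24 h. Each treatment had 3 RNA-seq libraries, which the design text calls biologically independent, and all came from 1 cell line. The libraries labelled corticosterone replicates 1, 2 and 3 are called COR1, COR2 and COR3, and those labelled vehicle replicates 1, 2 and 3 are called VEH1, VEH2 and VEH3. The comparison asks which of these genes differ between myotubes labelled as treated with corticosterone and those labelled vehicle.

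Matrix metalloproteinases (MMPs) are zinc enzymes, secreted or held in the cell membrane, that cut collagens and other matrix proteins after their propeptide is removed. Tissue inhibitors of metalloproteinases (TIMPs) block their active site. ADAMs are mostly membrane enzymes that shed growth factors, receptors and adhesion proteins from the cell surface, and ADAMTS enzymes are their secreted relatives, which cut proteoglycans and procollagens. ADAMTS-like proteins share the matrix-binding part of ADAMTS enzymes and lack the protease part. In muscle these families act in matrix turnover, myoblast migration and fusion, and repair.

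Total counts ran from 25826081 to 29928653 in the libraries labelled corticosterone and from 23877583 to 28496898 in those labelled vehicle. A count of 3, taken as the floor, stood for 0.1002 to 0.1256 CPM (read counts scaled to library size) by library totals alone, and covers counting error only. All other CPM values include TMM factors. Glucocorticoid-induced genes went against 2 of the labels. Fkbp5 stood at 151, 36.9 and 135 CPM in COR1, COR2 and COR3, against 36.9, 177 and 35.3 CPM in VEH1, VEH2 and VEH3, and Tsc22d3 and Per1 were high in the same 3 libraries. COR1, COR3 and VEH2 thus held the higher level of these genes, and COR2, VEH1 and VEH3 the lower. That grouping comes from these 3 genes and not from the labels, so values are set out by it without group means or a test, and ratios are given only between single libraries. Over 14450 genes, COR1 and VEH3, VEH1 and VEH2, and COR2 and COR3 lay nearest each other, with root mean square differences of 0.359, 0.362 and 0.399 log2 units, against 0.446 to 0.561 for the other pairs of libraries. Each of these 3 near pairs joins a library of higher Fkbp5 to one of lower Fkbp5. Of the 8 myotube markers found in the table, 7 passed the count filter, and Tnnc2, which encodes fast troponin C, held 1 to 5 counts. Myotube markers summed to 11095 to 12373 CPM in the libraries labelled corticosterone, against 8873 to 11997 CPM in those labelled vehicle. Fibroblast markers, all 4 past the filter, summed to 124 to 164 CPM against 147 to 213 CPM. Ly6a was the largest part of that sum in every library. Dpt, another of the 4, stood at 0.628, 3.22 and 3.73 CPM in COR1, COR2 and COR3, against 1.37, 0.689 and 0.584 CPM in VEH1, VEH2 and VEH3. Cd34 was counted among both the fibroblast and the reserve myoblast markers. Reserve myoblast markers, 6 of 6 past the filter, summed to 337 to 428 CPM against 284 to 478 CPM. Leukocyte markers summed to 1.88 to 2.97 CPM against 1.38 to 2.25 CPM and endothelial ones to 0.616 to 0.733 CPM against 0.517 to 0.742 CPM, with 1 of 7 and 1 of 4 past the filter and Ptprc and Adgre1 at 0 counts in all 6 libraries.

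Of the 84 members, 44 passed the count filter of the test, 19 had counts but did not pass, and 21 had no count in any library. By family, 8 of 23 Mmp, 4 of 4 Timp, 14 of 19 Adamts, 5 of 5 Adamtsl and 13 of 33 Adam genes passed. The inducible collagenase, stromelysin and gelatinase genes were at or near 0. Mmp9, which encodes gelatinase B, held 1, 4 and 2 counts in COR1, COR2 and COR3, against 4, 3 and 0 counts in VEH1, VEH2 and VEH3. Mmp3, Mmp10 and Mmp13 totalled 8, 20 and 12 counts over the 6 libraries, and Mmp1a, Mmp1b, Mmp7 and Mmp12 had none. The 13 Adam genes at 0 included Adam2 and Adam3, genes of sperm, and Mmp17, at 52 counts in all, was the most counted member under the filter.

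Per kilobase of exon, the members covered several orders of magnitude. Timp2 was the highest, at 529 ± 54.3 CPM per kb (SD over the 6 libraries), which placed it 46th of 14406 genes with a length. It was followed by Mmp2, the gelatinase A gene, at 290.4 ± 109.7 CPM per kb, Timp1 at 275 ± 44.04 and Mmp14 at 115 ± 18.01. The ranges of Mmp2 and Timp1 overlapped, from 144 to 376 and from 224 to 332 CPM per kb, so their order is not beyond their spread. Adam9 at 69.4 ± 8.14 CPM per kb led the Adam genes, Adamtsl5 at 37.3 ± 5.77 the Adamtsl genes and Adamts1 at 28.9 ± 11.98 the Adamts genes. Of the 44 members, 4 stood at 100 CPM per kb or more, 18 at 10 or more and 32 at 1 or more. The inhibitor Timp4 was low, at 0.342 to 0.510 CPM against 0.312 to 0.586 CPM.

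**Figure D1:**
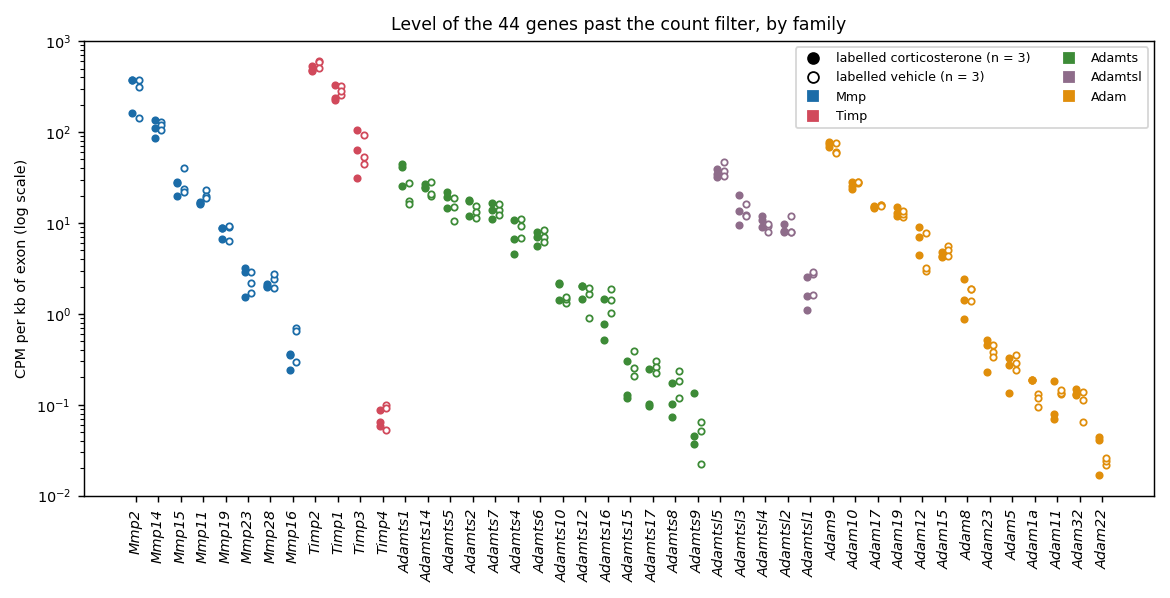
Level of each of the 44 genes that passed the count filter, in CPM per kb of exon on a log axis, with 1 point per library (filled, labelled corticosterone; open, labelled vehicle) and colours by family. Timp2, Mmp2, Timp1 and Mmp14 stand at the top, and Timp4 lies far below the other Timp genes.

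By the labels, no matrix protease or inhibitor gene passed the test. With edgeR's quasi-likelihood test, 0 of 44 members had an adjusted p under 0.05, where 0% of all 14450 genes did, and the smallest adjusted p among members was 0.364. Before adjustment, 4 members (9.09%) had p under 0.05, namely Adamts1, Mmp11, Adam1a and Mmp16, beside 11.8% of all genes. limma-voom called 0 members and DESeq2 called 1, Adamts1, where DESeq2 called 0.955% of all genes and gave 5 members no adjusted p. Corticosterone minus vehicle by label was above 0 for 19 of the 44 members and below 0 for 25, and the members' median was -0.07 on the log2 scale, beside 7343 higher and 7107 lower and a median of 0.004 over all genes. Leaving out any 1 library gave 0 member calls, where 0.199% of all genes were called without COR1, 0.0744% without VEH3 and 0% without each of the others. Leaving out COR2 and VEH2 together also gave 0, where 0.0208% of all genes were called, as did COR1 with VEH1 (0.0137%) and COR1 with VEH2 (0.0138%). Without COR2 and VEH2, the labels and the level of Fkbp5 split the libraries in the same way and cannot be told apart. As these are bulk samples, fewer cells of a type and less RNA per cell cannot be told apart. Markers of proliferating cells summed to 138 to 155 CPM in the libraries labelled corticosterone, against 176 to 193 CPM in those labelled vehicle, with 5 of 5 markers past the count filter, and their part in these differences was not tested.

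**Figure D2:**
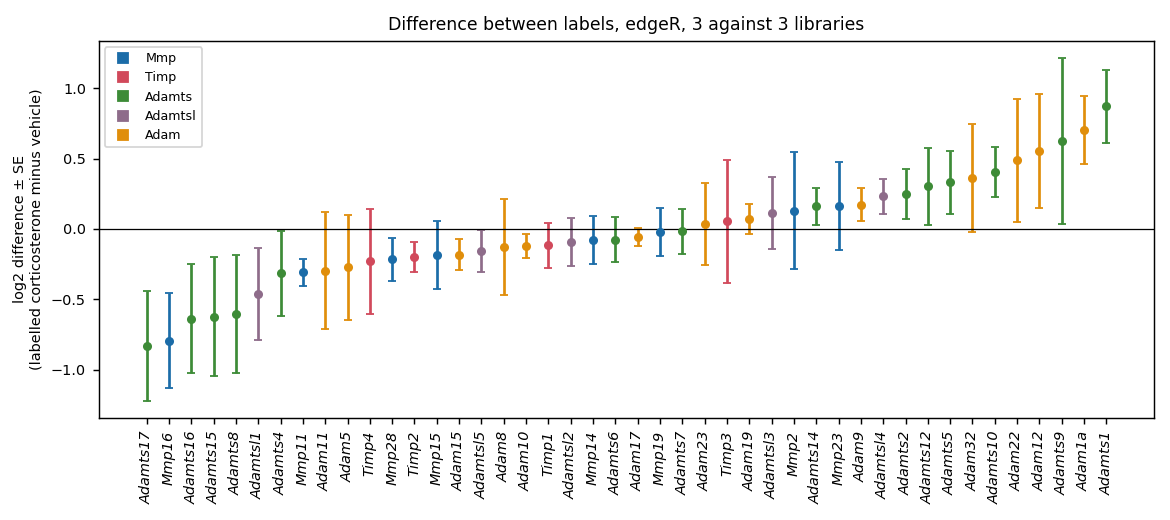
Log2 difference of each of the 44 genes, labelled corticosterone minus labelled vehicle, with its standard error from edgeR (3 libraries against 3), ordered by size and coloured by family. Adamts1 at 0.87 is the highest and Adamts17 at -0.83 the lowest, and 0 of the 44 passed at an adjusted p under 0.05.

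Adamts1, which encodes a secreted enzyme that cuts versican, was the member furthest to the higher side. It gave 136, 221 and 238 CPM in COR1, COR2 and COR3, against 93.3, 146 and 86.4 CPM in VEH1, VEH2 and VEH3. The groups overlapped only through COR1 and VEH2. Its mean was 198 ± 54.7 CPM in the libraries labelled corticosterone and 108 ± 32.3 CPM in those labelled vehicle (SD, n = 3 each), and on the log2 scale they differed by 0.87 ± 0.26 (SE; adjusted p = 0.364 with edgeR, and 0.0454 with DESeq2). With 1 library left out, the difference ran from 0.72 to 1.14, and over all alternatives its adjusted p ran from 0.0454 to 0.930. Mmp11, the stromelysin 3 gene, whose product is activated inside the cell by furin, stood at 47.9, 46.7 and 44.7 CPM against 64.8, 55.6 and 52.0 CPM. All 3 libraries labelled corticosterone lay below all 3 labelled vehicle, and the log2 difference was -0.31 ± 0.10 (edgeR adjusted p = 0.364, and 0.205 by DESeq2). Adam1a, whose product in mouse acts in sperm, stood at 1.40, 1.40 and 1.41 CPM against 0.976, 0.896 and 0.709 CPM (log2 difference 0.70 ± 0.24, edgeR adjusted p = 0.367). These levels rest on 36 to 41 counts per library labelled corticosterone, against 17 to 26 per library labelled vehicle. Of its exon length, 63.7% overlaps Gm42878 and 24.0% Mapkapk5 on the same strand, so its counts may hold or lack reads of those genes.

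Mmp11 and Adam1a were the only members without overlap between the labels, 2 of 44 (4.55%), where 16.6% of all genes did not overlap, 8.41% with the libraries labelled corticosterone higher, as for Adam1a, and 8.19% with them lower, as for Mmp11. The count was 15 without COR1, 8 without COR2, 3 without COR3, 4 without VEH1, 7 without VEH2 and 11 without VEH3, and over all genes the share was then 34.3%, 27.5%, 23.0%, 20.1%, 23.8% and 41.9%. With fewer libraries a separation is easier to meet, and the members' share lay near or under that of all genes each time. With COR2 and VEH2 both left out, 13 of 44 members did not overlap, where 37.1% of all genes did not.

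The promoters of Adamts1, Mmp11 and Adam1a are shown because these genes had the smallest unadjusted p by label. Among the 6 members that separated the libraries of higher and lower Fkbp5 (described further on), only Timp1 had a promoter window, also shown. Each window runs from 250 bases before to 50 after the start site, 5′ to 3′, from RefSeq on GRCm38.p6. Such windows were held for 27 of the 44 members that passed the filter. For Adam1a and Mmp11 this start site lies inside the annotated gene, which on the minus strand begins at 121545482 and at 75936496. Capitals mark matches on either strand to TATAAA (the TATA box) or to AGAACA, the half-site of the glucocorticoid receptor, and the Timp1 window holds neither.
Adamts1 (chr16:85803064-85803363, minus strand): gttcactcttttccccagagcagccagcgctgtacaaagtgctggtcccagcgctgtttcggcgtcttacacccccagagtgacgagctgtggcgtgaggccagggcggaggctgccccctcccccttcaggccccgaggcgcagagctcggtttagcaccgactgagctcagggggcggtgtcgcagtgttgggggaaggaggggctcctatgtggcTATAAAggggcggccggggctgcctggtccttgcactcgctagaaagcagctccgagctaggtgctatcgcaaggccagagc
Mmp11 (chr10:75932453-75932752, minus strand): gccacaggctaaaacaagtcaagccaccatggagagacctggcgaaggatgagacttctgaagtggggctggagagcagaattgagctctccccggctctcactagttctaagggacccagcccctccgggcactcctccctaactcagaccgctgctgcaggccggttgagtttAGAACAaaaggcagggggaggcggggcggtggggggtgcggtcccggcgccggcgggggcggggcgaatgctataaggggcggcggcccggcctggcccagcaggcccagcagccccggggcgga
Adam1a (chr5:121521646-121521945, minus strand): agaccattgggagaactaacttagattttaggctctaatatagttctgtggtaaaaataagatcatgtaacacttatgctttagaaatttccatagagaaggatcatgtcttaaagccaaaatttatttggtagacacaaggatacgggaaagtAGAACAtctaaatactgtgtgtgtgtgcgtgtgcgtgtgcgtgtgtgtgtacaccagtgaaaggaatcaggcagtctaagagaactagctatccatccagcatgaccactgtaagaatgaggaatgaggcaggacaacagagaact
Timp1 (chrX:20869916-20870215, plus strand): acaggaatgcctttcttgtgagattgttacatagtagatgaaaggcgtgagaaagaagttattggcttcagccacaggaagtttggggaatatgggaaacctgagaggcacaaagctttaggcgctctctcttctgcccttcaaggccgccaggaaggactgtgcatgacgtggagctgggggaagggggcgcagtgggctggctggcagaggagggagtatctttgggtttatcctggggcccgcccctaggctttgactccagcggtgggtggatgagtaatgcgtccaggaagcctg
The 27 members that passed the filter had 30 windows, and 26 members that did not pass had 28. TATAAA was in 2 of the 30 windows (6.67%), those of Adamts1 and Adamtsl2, and in 13 of the 28 (46.4%), among them Mmp3, Mmp10, Mmp12, Mmp13, Mmp1a and Mmp1b, beside 13.6% of all 32851 promoter windows. The AP-1 motif TGANTCA was in 1 of the 30 (3.33%), that of Adam19, and in 12 of the 28 (42.9%), the same 6 Mmp genes among them, beside 7.81% of all windows. AGAACA was in 4 of the 30 (13.3%), of Adam1a, Mmp11 and Mmp23, and in 7 of the 28 (25%), of Mmp7, Mmp10, Mmp12, Adam20, Adam21 and Adam25, beside 19% of all windows. The full response element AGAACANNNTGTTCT, which contains the half-site, was in 0 of the 30 and 0 of the 28, and in 3 of all windows (0.00913%). These are matches of letters in short windows. Mmp1a, Mmp1b, Mmp3, Mmp10, Mmp12 and Mmp13 lie close together on chromosome 9, between 7272514 and 7510240, and the Adam20 and Adam25 windows are nearly alike. The 28 windows are thus not separate cases, and their shares count related genes more than once.

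Mmp2 and Mmp14, the most abundant MMP genes, were both lowest in COR1 and VEH3, and only Mmp2 set this near pair clearly apart. Mmp2 (ENSMUSG00000031740, GRCm38 chromosome 8, 92827291 to 92853420) encodes an enzyme that cuts gelatin and basement membrane collagen. It stood at 542, 1258 and 1269 CPM in COR1, COR2 and COR3, against 1058, 1262 and 484 CPM in VEH1, VEH2 and VEH3. COR1 and VEH3 thus lay far below the other 4 libraries, 1 low library under each label. The log2 difference was 0.13 ± 0.41 (edgeR adjusted p = 0.911), and its sign turned when COR2, COR3 or VEH3 was left out (-0.05, -0.05 and -0.19). Mmp14 (chromosome 14, 54431612 to 54445364), the membrane enzyme that activates pro-MMP2 in a complex with TIMP2, stood at 512, 811 and 669 CPM against 768, 716 and 623 CPM. COR1 and VEH3 were again the lowest of the 6 libraries, though VEH3 lay nearer COR3 than COR1. The log2 difference of Mmp14 was -0.08 ± 0.17. Mmp15, a second membrane-type enzyme, was instead highest in VEH3, at 148, 151 and 106 CPM against 127, 118 and 215 CPM (-0.18 ± 0.24).

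Among the lower MMP genes, Mmp19 and Mmp23 had COR1 and VEH3 lowest as well. Mmp19 stood at 23.4, 30.8 and 31.2 CPM against 31.6, 32.7 and 22.3 CPM, and Mmp23 at 3.56, 6.71 and 7.54 CPM against 5.12, 6.75 and 3.96 CPM. Tmem198b overlaps 22.3% of the Mmp19 exon length on the other strand, so reads there cannot be assigned without strand. Mmp16, a membrane-type enzyme, was highest in VEH1 and VEH2, at 2.09, 3.15 and 3.02 CPM against 6.05, 5.65 and 2.59 CPM (log2 difference -0.79 ± 0.34, edgeR adjusted p = 0.421). Mmp28, the epilysin gene, had the narrowest range of the 8 Mmp genes, 1.41-fold, from 7.56 to 8.36 CPM against 7.55 to 10.7 CPM. The summed level of all 23 Mmp genes was 1289, 2316 and 2139 CPM in COR1, COR2 and COR3, against 2071, 2208 and 1411 CPM in VEH1, VEH2 and VEH3, and this sum is mostly Mmp2 and Mmp14.

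Timp2 was steady and Timp3 was not. Timp2 (chromosome 11, 118301069 to 118355740), whose product inhibits MMPs and also helps MMP14 activate pro-MMP2, stood at 2056, 1814 and 1886 CPM in COR1, COR2 and COR3, against 2334, 2287 and 1981 CPM in VEH1, VEH2 and VEH3. The groups overlapped only through COR1 and VEH3, and the log2 difference was -0.20 ± 0.11 (edgeR adjusted p = 0.486). Timp3 (chromosome 10, 86300372 to 86349506), which encodes the inhibitor that stays bound to matrix and also blocks ADAM17 and several ADAMTS enzymes, stood at 255, 853 and 514 CPM against 764, 438 and 360.0 CPM. It ranged 3.34-fold over the libraries, with COR2 and VEH1 highest, and the means of 541 ± 299.6 and 521 ± 214 CPM (SD, n = 3 each) in the libraries labelled corticosterone and vehicle lay close together (log2 difference 0.05 ± 0.44, edgeR adjusted p = 0.969). Its sign turned under several settings, to -0.44 without COR2. Syn3 overlaps 21.3% of its exon length on the other strand but held only 3 to 9 counts per library. Timp1 (chromosome X, 20870166 to 20874735), a soluble inhibitor, stood at 199, 295 and 209.6 CPM against 284, 229 and 250.1 CPM (-0.12 ± 0.16).

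**Figure D3:**
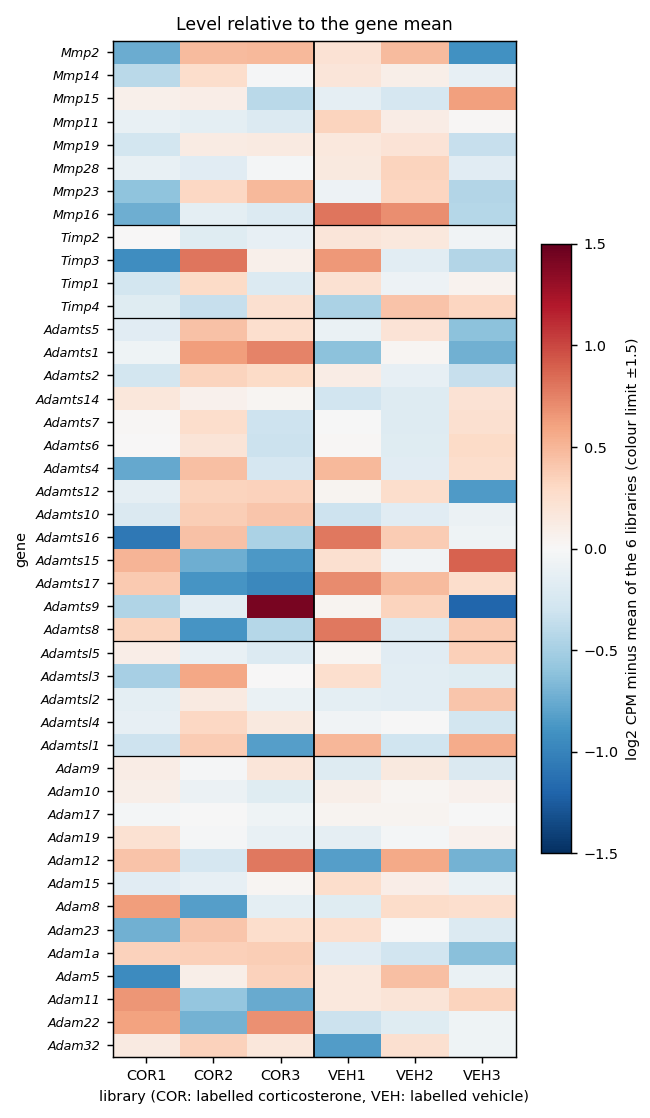
Log2 CPM of each of the 44 genes minus its mean over the 6 libraries, by library (COR, labelled corticosterone; VEH, labelled vehicle), with families separated by lines. Mmp2 is low in COR1 and VEH3, Mmp16 is high in VEH1 and VEH2, and Adam10 and Adam17 are nearly even.

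Counted over all members, 14 of 44 (31.8%) had COR1 and VEH3 both below the other 4 libraries, where 12% of all genes did. They were Mmp2, Mmp14, Mmp16, Mmp19, Mmp23, Timp3, Adamts2, Adamts5, Adamts9, Adamts12, Adamtsl3, Adamtsl4, Adam5 and Adam23. COR2 and COR3 lay both above the other 4 for 8 members (18.2%), beside 13.3% of all genes, COR1 and VEH3 both above for 5, beside 10.3%, and VEH1 and VEH2 for 8 members (18.2%), beside 16.8%. COR2 and COR3 lay both below the other 4 for 7 members, beside 13.4% of all genes, and VEH1 and VEH2 for 2, beside 18.4%. Since the near pairs were read from all genes, members among them, these counts describe the libraries and carry no test. Members also varied more than most genes: of 33 with a mean of at least 5 CPM, 14 (42.4%) had a highest library at least 2-fold over the lowest, beside 7.44% of all genes at that level.

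Of the genes for proteoglycan-cutting ADAMTS enzymes, Adamts1 and Adamts5 were both highest in COR2 and COR3 and lowest in VEH3. Adamts4 had another order, highest in VEH1 and COR2 and lowest in COR1. Adamts5 (chromosome 16, 85856173 to 85901828), an aggrecan- and versican-cutting enzyme whose gene lies near Adamts1, stood at 156, 236 and 208 CPM in COR1, COR2 and COR3, against 163, 201 and 114 CPM in VEH1, VEH2 and VEH3 (log2 difference 0.33 ± 0.22, edgeR adjusted p = 0.574). Adamts4 (chromosome 1, 171250421 to 171260637), an aggrecan-cutting enzyme, stood at 22.1, 51.4 and 31.7 CPM against 52.6, 33.3 and 45.1 CPM. Every library with the higher Fkbp5 lay below every library with the lower, while the labels overlapped (-0.32 ± 0.30). Adamts2 and Adamts14, which remove the amino-terminal propeptide of fibrillar procollagens, stood at 110.2, 168 and 162 against 143, 122 and 105 CPM and at 140.1, 131 and 128 against 102, 109 and 145 CPM. Both lay within the spread of the labels, with log2 differences of 0.25 ± 0.18 and 0.16 ± 0.13.

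Of the other ADAMTS genes, Adamts7, whose product cuts cartilage oligomeric matrix protein, differed by -0.02 ± 0.16 and Adamts6 by -0.08 ± 0.16. Adamts10, whose product binds fibrillin, was highest in COR2 and COR3, at 11.7, 17.6 and 18.02 CPM against 11.0, 12.02 and 12.7 CPM (0.40 ± 0.18). Adamts17 was lowest in the same 2 libraries, at 1.92, 0.787 and 0.746 CPM against 2.38, 2.03 and 1.75 CPM (-0.83 ± 0.39). With COR1 and VEH3 left out, chosen after the values were seen, edgeR called Adamts10, Adamts17 and Mmp16, 3 of 43 members, where 3.96% of all genes were called. That fit sets COR2 and COR3 against VEH1 and VEH2, 2 of the near pairs, so a difference between near pairs and one between labels cannot be told apart in it. Adamts8, Adamts9 and Adamts15 stayed under 5 CPM in all 6 libraries, and Adamts12 and Adamts16 ran from 9.76 to 22.4 and from 3.52 to 12.8 CPM.

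The ADAMTS-like genes, which encode proteins without a protease, were all present. Adamtsl5 gave 187, 161 and 151 CPM in COR1, COR2 and COR3, against 178, 154 and 224 CPM in VEH1, VEH2 and VEH3 (log2 difference -0.16 ± 0.15). Adamtsl3 stood at 74.2, 156 and 105 CPM against 124, 93.8 and 91.9 CPM, and COR2 was the highest. Its difference of 0.11 ± 0.26 turned to -0.21 without COR2 and to -0.27 without COR2 and VEH2. Adamtsl1 (chromosome 4, 85514172 to 86428385) stood at 20.2, 32.7 and 14.2 CPM against 35.4, 20.5 and 36.9 CPM, again low in COR1, COR3 and VEH2 (-0.46 ± 0.33). Adamtsl2 and Adamtsl4, whose products bind fibrillin, differed by -0.09 ± 0.17 and 0.23 ± 0.13.

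The sheddase genes Adam10 and Adam17 were the steadiest members. Adam17 (chromosome 12, 21323509 to 21373632), which releases TNF and EGF-receptor ligands, stood at 108, 109 and 105 CPM in COR1, COR2 and COR3, against 113, 113 and 109 CPM in VEH1, VEH2 and VEH3, a 1.08-fold range. Adam10, the main sheddase of Notch, gave 140.1, 124 and 117 CPM against 140.3, 135 and 139 CPM. Their log2 differences were -0.06 ± 0.06 and -0.12 ± 0.08 (edgeR adjusted p = 0.71 and 0.585). Adam19, the meltrin beta gene, and Adam15 differed by 0.07 ± 0.11 and -0.18 ± 0.11.

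Adam12 (chromosome 7, 133883199 to 134232146), which encodes meltrin alpha, a protein of myoblast fusion and muscle regeneration, had the widest spread of the Adam genes above 10 CPM. It gave 74.7, 46.7 and 95.6 CPM in COR1, COR2 and COR3, against 31.2, 82.2 and 34.0 CPM in VEH1, VEH2 and VEH3. The labels overlapped, and COR1, COR3 and VEH2, the libraries with the higher Fkbp5, were the highest 3. By label the log2 difference was 0.55 ± 0.41 (edgeR adjusted p = 0.599, and 0.128 to 0.946 over all alternatives, lowest without COR2 and VEH2). That lowest value sets COR1 and COR3 against VEH1 and VEH3, the grouping by Fkbp5 itself, so it carries no test of the labels. Adam9, the meltrin gamma gene, had the same order with a smaller range, at 306, 281 and 321 CPM against 248, 313 and 244 CPM (0.17 ± 0.12). Adam8 stood at 11.2, 4.11 and 6.56 CPM against 6.41, 8.82 and 8.68 CPM. Adam11, Adam22 and Adam23, which encode relatives without protease activity that act mainly in neurons, ranged from 0.240 to 9.14 CPM.

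**Figure D4:**
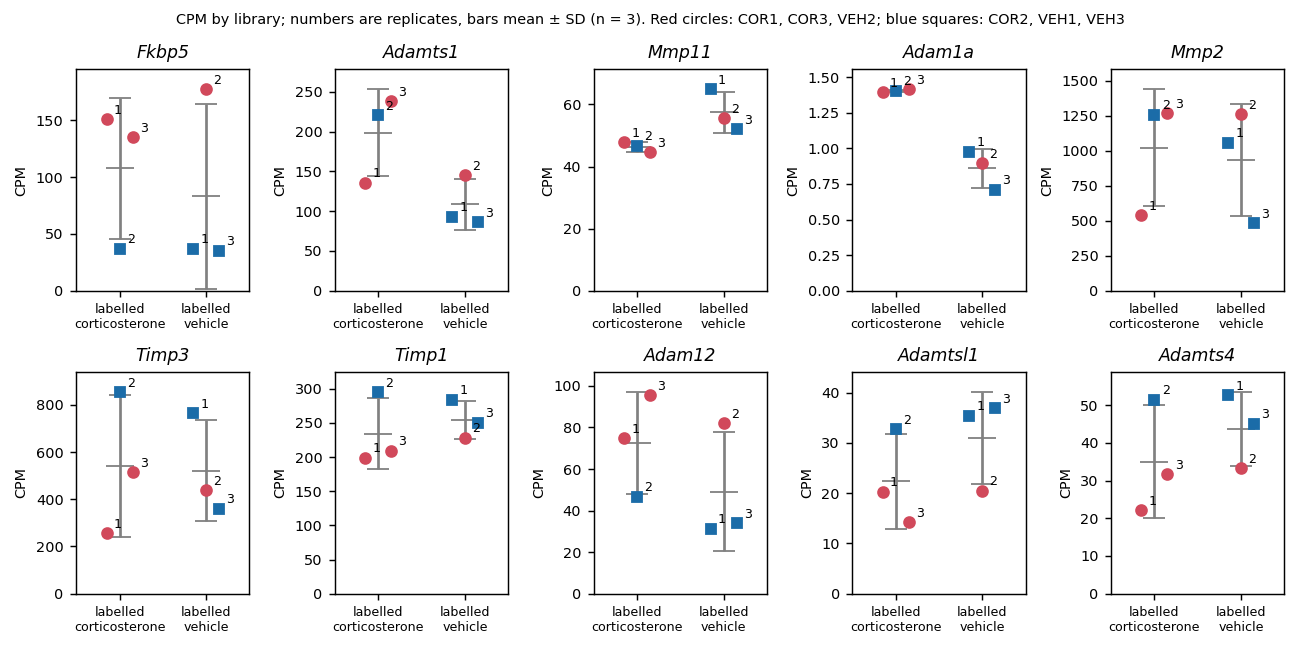
CPM by library for Fkbp5 and 9 of the genes, labelled corticosterone left and labelled vehicle right, numbered by replicate, with the mean and SD of each label (n = 3). Red circles are COR1, COR3 and VEH2 and blue squares COR2, VEH1 and VEH3: colours separate Fkbp5, Timp1, Adam12, Adamtsl1 and Adamts4, while the labels separate Mmp11 and Adam1a.

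Set out by the level of Fkbp5, 6 of 44 members did not overlap between COR1, COR3 and VEH2 and COR2, VEH1 and VEH3 (13.6%), where 9.63% of all genes did not, a share not far from the background. Adam12 and Adam9 lay higher in the libraries with more Fkbp5 (4.89% of all genes), and Timp1, Adamts4, Adamts6 and Adamtsl1 lay lower (4.74% of all genes). Timp1 stood at 199 to 229 CPM in COR1, COR3 and VEH2 and at 250.1 to 295 CPM in COR2, VEH1 and VEH3. Adamtsl1 stood at 14.2 to 20.5 CPM against 32.7 to 36.9 CPM, and Adamts6 at 43.4 to 54.2 against 54.9 to 65.9 CPM, in the same order of libraries.

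Within the 3 near pairs, the library with more Fkbp5 was compared with its neighbour, COR1 with VEH3, COR3 with COR2 and VEH2 with VEH1. Adam12 was higher each time, with log2 ratios of 1.13, 1.04 and 1.40. Adamts1 was also higher, by 0.65, 0.11 and 0.64, as was Adam8, by 0.37, 0.67 and 0.46. Timp3 was lower each time, with log2 ratios of -0.50, -0.73 and -0.80, although its values overlapped between the libraries of higher and lower Fkbp5. The ratios were -1.03, -0.70 and -0.66 for Adamts4, -0.87, -1.21 and -0.79 for Adamtsl1, -1.0, -0.91 and -0.41 for Adamts16, and -0.33, -0.49 and -0.31 for Timp1. Mmp2 varied little within pairs, at 0.16, 0.01 and 0.25. In all, 27 of 44 members (61.4%) went the same way in the 3 pairs, 10 higher and 17 lower, beside 40.4% of all genes, 20.0% higher and 20.4% lower. The 17 lower members (38.6%) were 4 of 5 Adamtsl, 5 of 14 Adamts, 4 of 8 Mmp, 2 of 4 Timp and 2 of 13 Adam genes. Ratios of any size were counted, such as -0.0015 for Adam17 in VEH2 over VEH1. The pairs and their order were both read from these libraries, so these ratios carry no test.

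**Figure D5:**
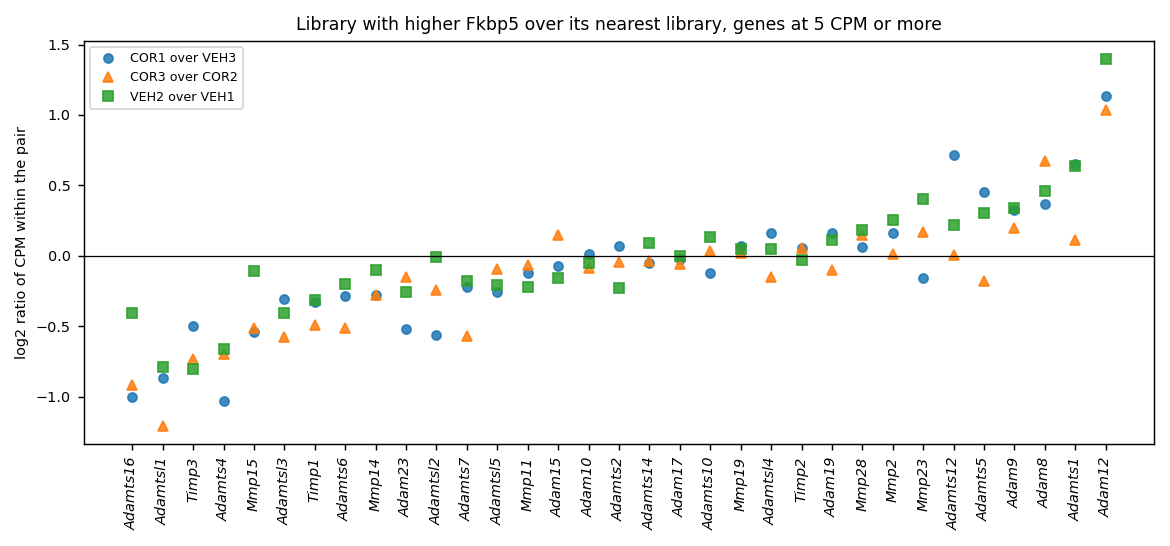
Log2 ratio of CPM within each of the 3 near pairs, the library with more Fkbp5 over its neighbour (circles COR1 over VEH3, triangles COR3 over COR2, squares VEH2 over VEH1), for the 33 genes with a mean of at least 5 CPM, ordered by the median ratio. Adam12 lies at 1.04 to 1.40 and Adamtsl1 at -1.21 to -0.79, while Adam10, Adam17 and Timp2 lie near 0.

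Of 54 genes whose products activate, inhibit or serve these proteases, or are cut by them, 38 passed the count filter. By the labels 0 passed edgeR's test, where 0% of all genes did, and 5 of 38 (13.2%) had an unadjusted p under 0.05, beside 11.8% of all genes. limma-voom called 0 and DESeq2 called 1 (2.63%), beside 0.955% of all genes. The difference by label was above 0 for 26 and below 0 for 12 of the 38, with a median of 0.11 on the log2 scale. Of the 38, 4 did not overlap between the labels, all higher in the libraries labelled corticosterone, where 8.41% of all genes were, and 0 were lower without overlap, where 8.19% were. Vcan, the versican gene and a substrate of ADAMTS1, was the 1 that DESeq2 called. It gave 134, 173 and 172 CPM in COR1, COR2 and COR3, against 97.0, 85.9 and 118 CPM in VEH1, VEH2 and VEH3, without overlap (log2 difference 0.67 ± 0.15, edgeR adjusted p = 0.364, and 0.0129 by DESeq2). Furin, which removes the propeptide of many ADAM, ADAMTS and membrane-type MMP proteins, gave 183, 204 and 203 CPM against 163, 166 and 172 CPM (0.24 ± 0.07, edgeR adjusted p = 0.364). Areg, an EGF-receptor ligand shed by ADAM17, gave 4.40, 2.67 and 5.34 CPM against 2.07, 1.79 and 2.34 CPM (1.00 ± 0.28, edgeR adjusted p = 0.364). Cdh2, the N-cadherin gene, was the fourth without overlap, at 349, 357 and 352 CPM against 286, 329 and 327 CPM.

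Among the 5 most abundant partner genes, the other 4 overlapped between the labels. Lrp1, a receptor that clears proteases with their inhibitors, gave 1080.4, 1699 and 836 CPM in COR1, COR2 and COR3, against 821, 854 and 1007 CPM in VEH1, VEH2 and VEH3. Bsg, the gene of an MMP inducer, gave 559, 567 and 639 CPM against 565, 562 and 529.5 CPM. Cst3, the cystatin C gene, gave 365, 377 and 737 CPM against 437, 782 and 234 CPM, and Pcolce, an enhancer of procollagen processing, 336, 514 and 549.7 CPM against 412, 420.1 and 306 CPM. Fbln1, the gene of fibulin 1, a matrix protein that binds ADAMTS1, was high in the same 3 libraries as Fkbp5, and is named with its values already known. It gave 57.1, 37.9 and 136 CPM against 49.6, 133 and 25.9 CPM, with within-pair log2 ratios of 1.14, 1.85 and 1.42. Tll1 was also higher in all libraries with more Fkbp5, and Plau and Hbegf were lower in all of them.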

How the data were processed

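Poly(A) RNA of C2C12 myotubes was sequenced, 3 libraries per treatment. The authors deposited read counts per gene, as whole numbers; the build mm10 and the tools DESeq2 1.24.0, HTSeq 0.6.1 and HISAT2 2.0.5 come from the submitters' processing notes. Which annotation release and strand setting the counting used is not given in sources used here, and the labels' kit does not mark strand. The counts were used as deposited, with TMM scaling. Of 46983 identifiers, 46488 matched GENCODE M21 (GRCm38), which gave positions and exon lengths. Corticosterone was tested against vehicle by edgeR's quasi-likelihood test (edgeR 4.0.16, R 4.3.3) on the 14450 genes kept by filterByExpr, two-sided, with Benjamini-Hochberg adjustment over all of them and a threshold of 0.05. DESeq2 1.42.0, limma-voom (limma 3.58.1), other scalings and count filters, a replicate block and left-out libraries were alternatives. On simulated data the fit found 32 of 70 genes changed 1.5-fold, 62 of 70 changed 2-fold and 59 of 60 changed 4-fold. It made 9 false calls. The simulated libraries were drawn independently, without the near pairs or the mismatch of Fkbp5 and labels seen here. Members with full statistics included those called in the main fit, in DESeq2, with 1 library left out or without both libraries numbered 2. Those without overlap, the most abundant of each family and 12 fixed genes were added. Adamts10, Adamts17 and Mmp16, called only with COR1 and VEH3 left out, were outside this set. The members and lists were chosen with earlier results of these data known. P-values weigh the difference between labels against the spread between these libraries of the same label.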

Additional observations from a re-analysis of the deposited data

How the results depend on the processing

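The count of 0 called members was the same with limma-voom, 3 other scalings, no count filter, a stricter filter (at least 50 counts in 3 libraries), the replicate block and each library left out. DESeq2 called 1, and leaving out corticosterone replicate 1 with vehicle replicate 3, chosen after the values were seen, called 3, while the other 7 such pairs called 0. The partner genes gave 1 call with DESeq2 (0.955% of all genes) and 5 without that pair of libraries (Notch1, Serpine2, Tspan15, Tspan5 and Vcan; 3.96% of all genes). Replicate numbers did not pair the libraries, since deviations of same-numbered libraries correlated at -0.15, -0.27 and -0.32 across 14450 genes, and the block gave 0 calls. Members without overlap by label numbered 3 to 15 with 1 library left out and 13 with both libraries numbered 2 left out, fewer libraries being easier to separate. The 21 members with full statistics gave 313 alternative values, of which 17, from 7 members, changed sign, and the cause was not tested. Fits without a pair of libraries were not counted there, save that without both libraries numbered 2. Timp3, at 0.05, gave -0.036 with limma-voom, -0.0014 with library totals only, -0.0022 with the replicate block, -0.55 without both libraries numbered 2 and -0.44 to 0.43 with 1 left out. Timp4 gave 0.065 and Adamtsl3 -0.27 without both libraries numbered 2. With 1 library left out, differences ran from -0.20 to 0.048 for Adamts6, -0.21 to 0.34 for Adamtsl3, -0.25 to 0.075 for Mmp14, -0.34 to 0.13 for Mmp15 and -0.19 to 0.43 for Mmp2. Members under about 1 CPM rest on few counts.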
